A study of Mus musculus with 6 samples.

Results

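The proteasome is the multi-subunit protease that degrades ubiquitin-tagged proteins, and the transcripts of its subunits were followed in the mouse cochlear nucleus after the auditory nerve was silenced. Genes were taken when a probe set of the Affymetrix array carried a single gene symbol of the Psma to Psmg series with a number and had a mean log2 value above 4 over the 6 arrays. Each gene was represented by its brightest probe set. The symbols gave 48 genes, of which 45 passed this minimum, among 8754 named genes that did so on the array. The symbol pattern also takes in Psmc3ip and Psme3ip1, which are no proteasome subunits, so 43 of the 45 are subunits, regulators or assembly chaperones. Psma8, Psmb8 and Psmb9 were too dim, and the probe set for Psme2 also carried the symbol Psme2b and was not used.

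In mice at postnatal day 21 an osmotic pump fed tetrodotoxin, which blocks sodium channels and so action potentials, into the cochlea of 1 ear for 24 h. The cochlear nucleus, the brainstem nucleus where auditory nerve axons end, was then collected from the infused (ipsilateral) side and from the opposite (contralateral) side. Each side gave 3 pools of tissue from 10 to 12 mice, described as biological replicates, and each pool was hybridised to 1 array. Pools of the same replicate number were read as pairs from the same mice, which the labels do not state outright. The labels name no strain or sex, and both sides came from mice with an infused ear, so a difference could arise on either side. The design asked which genes of this nucleus are transcriptionally regulated after loss of afferent activity.

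The proteasome has a barrel-shaped core, with outer rings of alpha subunits that form the gate and inner rings of beta subunits, some of which are the proteases. A regulatory particle caps the core: its base holds a ring of ATPases that unfold substrates, and its lid removes the ubiquitin chain. In neurons the proteasome turns over synaptic proteins, and its activity and location have been tied to synaptic firing. When proteasome capacity is short, the transcription factor encoded by Nfe2l1, paired with a small Maf protein, raises the subunit genes together through antioxidant response elements in their promoters.

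Promoter sequence is shown first because such a shared response would act through it. Of the 45 genes 38 had a promoter window in the RefSeq table (build GRCm38.p6), from 250 bases before to 50 bases after the start of the gene. In all 4 motifs were searched on both strands. The antioxidant response element TGACNNNGC lay in the window of 6 of the 38 genes (15.8%), against 17.1% of 7116 tested genes with a window and 12.4% of all 32851 windows. Those 6 were Psmb5, Psmb6, Psmc6, Psmd9, Psmd12 and Psme4. The relaxed form TGANNNNGC, which includes every match of the first, was found in 21 genes (55.3%, against 48.0% of tested genes and 41.3% of all windows). The NF-Y box CCAAT was found in 14 genes (36.8%, against 43.0% and 37.4%). The ETS site CCGGAAG, a frequent element of housekeeping promoters, was found in 16 of 38 genes (42.1%), against 20.3% of tested genes and 8.86% of all windows. These matches describe letters in a window and carry no test.

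The 100 bases before the start are printed for 4 genes, 5′ to 3′ on the strand of the gene, with the matched motif in capitals. Psmb5 and Psmb6 encode catalytic subunits and hold the antioxidant response element. Psmd11 and Psmd6 encode lid subunits and hold the ETS site, in Psmd11 on the opposite strand.
Psmb5, chr14:54617996-54618095, minus strand: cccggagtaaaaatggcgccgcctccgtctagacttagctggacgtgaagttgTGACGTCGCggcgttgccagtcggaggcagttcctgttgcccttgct
Psmb6, chr11:70525257-70525356, plus strand: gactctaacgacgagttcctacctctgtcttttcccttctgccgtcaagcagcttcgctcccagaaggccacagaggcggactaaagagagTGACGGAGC
Psmd11, chr11:80428515-80428614, plus strand: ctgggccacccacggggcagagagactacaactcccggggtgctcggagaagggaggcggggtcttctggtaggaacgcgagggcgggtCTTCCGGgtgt
Psmd6, chr14:14120946-14121045, minus strand: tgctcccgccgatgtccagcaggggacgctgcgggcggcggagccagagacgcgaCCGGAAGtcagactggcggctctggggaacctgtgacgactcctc

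The deposited values were log2 GCRMA values with array medians from 5.86 to 5.91. All 14 pan-neuronal markers and 9 of 12 markers of cochlear nucleus identity were above the minimum, with Slc6a5, the glycine transporter gene, below it at 3.03. On the infused side 8 pan-neuronal markers were lower and 6 higher, and 6 identity markers were lower and 3 higher. Of 11 choroid plexus markers 7 were tested, and their mean was 8.51, 8.27 and 7.82 on contralateral arrays 1 to 3 and 9.45, 5.18 and 5.36 on ipsilateral arrays 1 to 3. Ipsilateral arrays 2 and 3 thus stood apart in this secretory tissue, which borders the nucleus. Microglial markers had means of 6.80 to 7.06 contralaterally and 7.10, 7.01 and 7.003 ipsilaterally (12 of 16 tested, 10 higher). Of those 10, 3 had an unadjusted limma p under 0.05, while 1.11% of all tested genes were higher at that level. Oligodendrocyte markers had means of 12.66 to 12.92 and 12.86 to 12.92 (8 of 10 tested, all 8 higher), astrocyte markers 10.18 to 10.35 and 10.36 to 10.36 (9 of 9 tested, 8 higher), and endothelial markers 6.61 to 6.65 and 6.43 to 6.68 (9 of 10 tested, 6 lower). Tested markers had a mean above 4 by the filter, yet some were dimmer on single arrays. On ipsilateral arrays 2 and 3 the choroid plexus marker Kcne2 measured 2.78 and 2.75, and Sostdc1 2.73 and 2.59. In such tissue samples fewer cells of a type and less RNA per cell cannot be told apart.

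Proteasome transcripts lay at nearly the same level on both sides. The infused side had the lower mean for 26 of the 45 genes and the higher mean for 19 (57.8% lower, against 50.9% of the 8754 genes tested). The median difference, ipsilateral minus contralateral in log2 units, was -0.02, against -0.00287 for all tested genes. Among the brightest probe sets the differences ran from -0.18 for Psma4 (0.882 times the contralateral signal) to 0.12 for Psmf1 (1.09 times). None passed in limma after Benjamini-Hochberg adjustment over all 15298 probe sets tested (0 of 45, against 0% of probe sets in either direction), and the adjusted p was 1.00 for each. At an unadjusted limma p under 0.05 there were also 0 of 45, against 2.43% of all genes (1.11% higher and 1.33% lower), and the smallest unadjusted p was 0.106. With the replicate number as a block the count was again 0 of 45, against 3.91%.

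**Figure D1:**
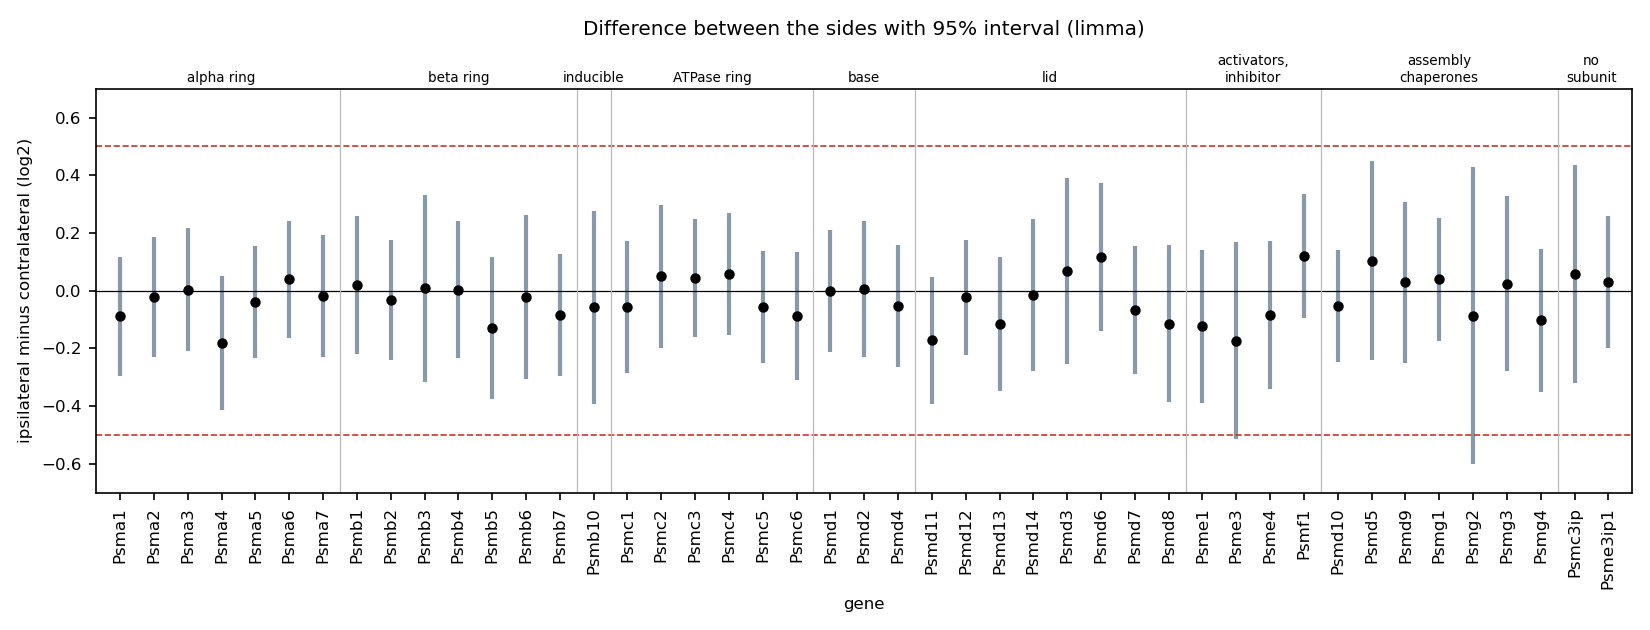
Difference between the sides (ipsilateral minus contralateral, log2) for the 45 genes by role, with points for the limma estimate and bars for its 95% interval over 3 arrays per side. Every interval includes 0, and those of Psme3 and Psmg2 alone cross the dashed lines at 0.5 on either side of 0.

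The 95% intervals set bounds on these differences. The bound of 0.5 used here is wider than the largest difference, which was 0.18 in size. The 95% interval of the limma estimate lay within 0.5 of 0 for 43 of 45 genes, against 72.9% of all tested genes. Psme3 (-0.52 to 0.17) and Psmg2 (-0.60 to 0.43) were the exceptions. The pooled SD within a side had a median of 0.09 over the 45 genes and 0.15 over all tested genes. Many of the 45 are bright, and bright probe sets scatter less: among genes with a mean above 9, the interval lay within 0.5 for 91.4% of 2005 genes and for 29 of 29 proteasome genes, with median SDs of 0.11 and 0.07. A p above the threshold does not show that the sides were equal, and the number of arrays limits the precision.

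The alpha ring encloses the gate of the core. Of its 7 tested genes 5 were lower and 2 higher, with a median of -0.02. Psma4 measured 9.92, 9.96 and 9.80 contralaterally and 9.81, 9.70 and 9.62 ipsilaterally, in replicates 1 to 3. The infused side was the lower one in each of the 3 replicates, by 0.11 to 0.26 in size, yet the lowest contralateral and the highest ipsilateral array overlapped. The difference was -0.18 (SE 0.10, 95% interval -0.41 to 0.05, limma, unadjusted p = 0.106). It was -0.08 without both ipsilateral arrays low in choroid plexus markers, a setting added after the values were seen. Psma1 measured 9.82, 9.87 and 9.91 contralaterally and 9.83, 9.70 and 9.80 ipsilaterally, a difference of -0.09 (SE 0.09, unadjusted p = 0.342). Its sides overlapped, and in replicate 1 the infused side was higher by 0.01. Psma5 measured 10.77, 10.75 and 10.78 contralaterally and 10.74, 10.74 and 10.69 ipsilaterally, so its sides did not overlap although they differed by -0.04 (SE 0.08). Psma2 (-0.02), Psma3 (0.0030), Psma6 (0.04) and Psma7 (-0.02) differed by less than their standard errors of 0.09.

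The beta ring carries the proteolytic sites. Of its 7 constitutive genes 4 were lower and 3 higher, with a median of -0.02. Psmb5, the chymotrypsin-like protease, measured 11.03, 10.98 and 11.20 contralaterally and 10.90, 10.87 and 11.05 ipsilaterally. Its 3 paired differences were close to each other, at -0.13, -0.11 and -0.14, while replicate 3 was the highest on both sides. The difference was -0.13 (SE 0.10, interval -0.38 to 0.12, limma, unadjusted p = 0.254), and with the replicate block the unadjusted p was 0.165. Psmb7, the trypsin-like protease, measured 11.82, 11.84 and 11.73 contralaterally and 11.78, 11.66 and 11.71 ipsilaterally. It was lower in 3 of 3 replicates with overlapping sides and differed by -0.08 (SE 0.09, unadjusted p = 0.375). Psmb6, the caspase-like protease, measured 10.78, 10.80 and 10.48 contralaterally and 10.76, 10.60 and 10.63 ipsilaterally. Contralateral array 3 was its lowest, and its difference of -0.02 turned to between 0.01 and 0.07 in 4 of 9 fits lacking 1 array or 1 pair. The structural subunits Psmb1 (0.02), Psmb2 (-0.03), Psmb3 (0.01) and Psmb4 (0.0031) differed by less than their standard errors of 0.09 to 0.14.

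Cytokines, above all interferon gamma, induce alternative catalytic subunits that replace the constitutive ones in the immunoproteasome. Psmb10, which replaces Psmb7, measured 7.12, 7.41 and 7.02 contralaterally and 7.03, 7.32 and 7.02 ipsilaterally. Replicate 2 was the highest on both sides, and the difference was -0.06 (SE 0.14, limma, unadjusted p = 0.694). It was 0.05 without contralateral replicate 2 and -0.16 without ipsilateral replicate 2. Psmb8, the counterpart of Psmb5, stayed below the minimum at 3.23, 3.43 and 3.25 contralaterally and 3.23, 2.96 and 3.23 ipsilaterally. Psmb9, the counterpart of Psmb6, lay at 2.45, 2.45 and 2.34 and at 2.45, 2.71 and 2.42. Values this dim lie near the floor of the method and bear on neither direction.

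The alpha subunit Psma8, known from testis, was the third gene below the minimum. It measured 3.47, 3.61 and 4.07 contralaterally and 3.19, 3.29 and 3.13 ipsilaterally, so the sides did not overlap. These values too lie near the floor of the method, where differences are uncertain. Tested with no filter on dim probe sets, Psma8 differed by -0.52 (SE 0.16, limma, unadjusted p = 0.0169, adjusted p = 1.00). It was the 1 proteasome gene of 48 at an unadjusted p under 0.05 in that fit, against 2.24% of 12393 genes. With a mean of 3.46 it was the nearest gene outside the minimum of 4, and Psmc3ip, with a mean of 4.72, was the nearest inside.

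The ring of ATPases pulls substrates into the core. Its 6 genes were split, with 3 lower and 3 higher and a median of -0.01. Psmc5 measured 10.98, 10.95 and 10.98 contralaterally and 10.95, 10.90 and 10.89 ipsilaterally. Its sides came close without overlapping, and the difference was -0.06 (SE 0.08, limma, unadjusted p = 0.520). Psmc6 measured 10.14, 10.19 and 10.31 contralaterally and 10.17, 10.05 and 10.15 ipsilaterally, a difference of -0.09 (SE 0.09, unadjusted p = 0.383) with overlapping sides. Psmc2 (0.05) and Psmc3 (0.04) were higher in 3 of 3 replicates by less than their standard errors of 0.10 and 0.09. Psmc4 differed by 0.06 and Psmc1 by -0.06. The base also holds Psmd1 and Psmd2, its large scaffold proteins, and the ubiquitin receptor Psmd4. Psmd2 measured 10.82, 10.70 and 10.62 contralaterally and 10.67, 10.82 and 10.68 ipsilaterally, and Psmd4 measured 10.21, 10.38 and 10.27 and then 10.23, 10.26 and 10.20. Both had overlapping sides, with differences of 0.01 (SE 0.10) and -0.05 (SE 0.09), and Psmd1 differed by 0.0003 (SE 0.09).

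The lid had 6 genes lower and 2 higher, with a median of -0.04. Psmd11, a scaffold of the lid whose level has been linked to proteasome assembly, measured 10.73, 10.65 and 10.54 contralaterally and 10.42, 10.52 and 10.47 ipsilaterally. All 3 ipsilateral arrays were below all 3 contralateral arrays. The difference was -0.17 (SE 0.09, interval -0.39 to 0.05, limma, unadjusted p = 0.107), and it kept its sign in every alternative, between -0.22 and -0.10. Its 3 other tested probe sets differed by -0.15, -0.10 and -0.13, so all 4 were lower on the infused side, although they read the same RNA and are not separate evidence. Psmd13 measured 8.76, 8.82 and 8.71 contralaterally and 8.59, 8.78 and 8.56 ipsilaterally, a difference of -0.12 (SE 0.10, unadjusted p = 0.274). It was lower in 3 of 3 replicates with overlapping sides. Psmd14, the deubiquitinase that cuts the chain from the substrate, measured 10.41, 10.36 and 10.28 contralaterally and 10.50, 10.32 and 10.18 ipsilaterally. Its difference of -0.02 (SE 0.11) had no settled sign, at 0.15 without both ipsilateral arrays low in choroid plexus markers. Psmd6 differed by 0.12 (SE 0.11) and was higher in 3 of 3 replicates. Psmd8 (-0.12), Psmd7 (-0.07), Psmd12 (-0.02) and Psmd3 (0.07) had standard errors of 0.08 to 0.14.

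**Figure D2:**
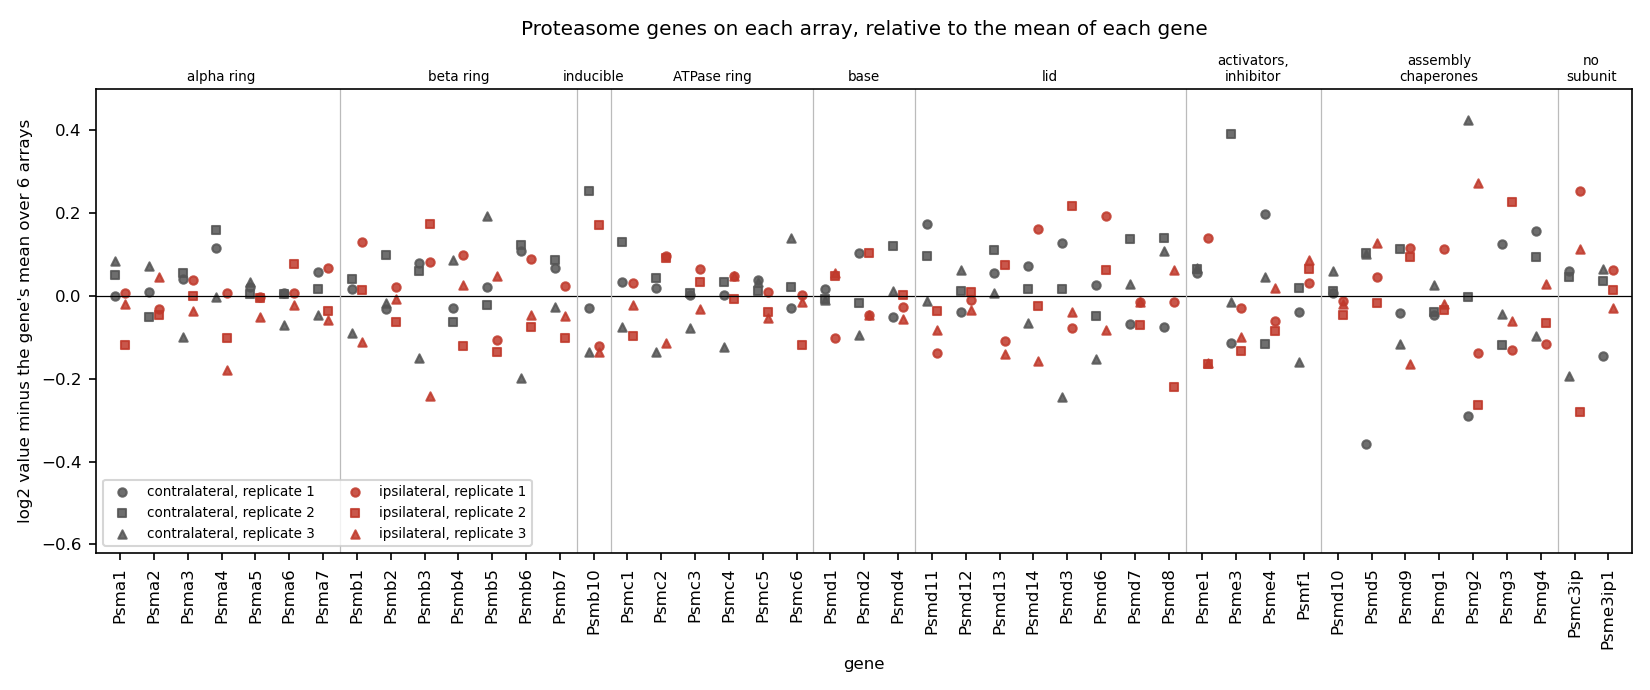
Log2 value of each of the 45 genes on each array minus the mean of that gene over the 6 arrays, in grey for the contralateral and red for the ipsilateral side, with marker shapes for replicates 1 to 3. The colours are mixed for most genes, and Psma5, Psmc5, Psmd11, Psmd10 and Psmf1 are the 5 whose sides do not overlap.

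Separate caps open the core without ubiquitin, and Psmf1 encodes an inhibitor of the core. Psmf1 measured 7.42, 7.48 and 7.30 contralaterally and 7.49, 7.53 and 7.55 ipsilaterally. It was the gene with the highest positive difference, 0.12 (SE 0.09, interval -0.09 to 0.34, limma, unadjusted p = 0.224), and the only one of the 45 with all ipsilateral arrays above all contralateral ones. Its other probe sets differed by 0.28 (SE 0.14, unadjusted p = 0.0932) and 0.35 (SE 0.16, unadjusted p = 0.0619). The first measured 5.70, 5.93 and 5.90 contralaterally and 5.93, 6.06 and 6.38 ipsilaterally, and the second 7.09, 6.60 and 7.03 and then 7.17, 7.42 and 7.16. The second also had sides that did not overlap. With the tested probe sets of each gene averaged before the fit, Psmf1 differed by 0.25 (SE 0.09, limma, unadjusted p = 0.0243, adjusted p = 1.00). In that fit it was the 1 gene of 45 at an unadjusted p under 0.05, against 2.63% of all genes.

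Psme3, the nuclear activator subunit, measured 7.97, 8.47 and 8.07 contralaterally and 8.06, 7.95 and 7.99 ipsilaterally. Contralateral array 2 stood above the rest, and the difference of -0.17 (SE 0.14, limma, unadjusted p = 0.267) became 0.0007 without replicate 2 of both sides. Its other probe set differed by 0.03. Psme1, part of the interferon-inducible activator, differed by -0.12 (SE 0.11): it measured 7.11, 7.12 and 7.12 contralaterally and 7.20, 6.89 and 6.90 ipsilaterally. Its 2 low arrays were the ipsilateral ones low in choroid plexus markers, and what part those markers have in it was not tested. Psme4, a large activator chain, differed by -0.09 (SE 0.11) and by 0.01 and 0.09 in its other probe sets.

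Of the 7 genes for assembly chaperones 3 were lower and 4 higher, with a median of 0.02. Psmd10 measured 7.70, 7.71 and 7.76 contralaterally and 7.69, 7.65 and 7.68 ipsilaterally, so the sides did not overlap, with a difference of -0.05 (SE 0.08, limma, unadjusted p = 0.540). Psmg4, which helps build the alpha ring, measured 5.56, 5.50 and 5.30 contralaterally and 5.28, 5.34 and 5.43 ipsilaterally, a difference of -0.10 (SE 0.10). It was -0.05 without contralateral replicate 1, -0.18 without contralateral replicate 3, -0.02 with pair 1 left out and -0.22 with pair 3 left out. Psmd5, a chaperone of the base, measured 7.76, 8.22 and 8.22 contralaterally and 8.17, 8.10 and 8.25 ipsilaterally. Contralateral array 1 was low on its own, and the difference of 0.10 (SE 0.15) was -0.05 without it. Psmg2 was the most variable of the 45 genes, with SDs of 0.36 and 0.28 and a difference of -0.09 (SE 0.22). It was highest in replicate 3 on both sides, at 8.40 and 8.24. Psmd9 (0.03), Psmg1 (0.04) and Psmg3 (0.02) differed by less than their standard errors of 0.09 to 0.13.

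The genes that the symbol pattern added did not differ beyond their spread either. Psmc3ip, a factor of meiotic recombination, measured 4.78, 4.77 and 4.53 contralaterally and 4.98, 4.44 and 4.84 ipsilaterally, a difference of 0.06 (SE 0.16). Psme3ip1, whose product binds the Psme3 activator, measured 8.21, 8.39 and 8.42 and then 8.41, 8.37 and 8.32, a difference of 0.03 (SE 0.10). Without them 26 of 43 genes were lower, with a median of -0.02.

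Sides that did not overlap and pairs of one sign were counted beside the same counts over all tested genes, with no test between the shares. Ipsilateral arrays all lay below contralateral arrays for 4 of 45 genes (8.89%, against 3.88% of tested genes), namely Psma5, Psmc5, Psmd11 and Psmd10, and above for 1 (2.22%, against 2.74%). The infused side was the lower one in 3 of 3 replicates for 9 of 45 genes, or 20.0%, against 13.8% of tested genes, and the higher one for 4, or 8.89%, against 11.1%. Those 9 were Psma4, Psma5, Psmb5, Psmb7, Psmb10, Psmc5, Psmd11, Psmd13 and Psmd10. Psmb10 was counted on a near tie, with a difference of -0.0002 in replicate 3.

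The direction depended on the replicate. In replicate 1 the infused side was lower for 20 of 45 genes, against 57.4% of all tested genes, with a median of 0.01 against -0.03. In replicate 2 it was 32 of 45, against 44.9% (median -0.05, against 0.02), and in replicate 3 it was 29 of 45, against 51.8% (median -0.03, against -0.01). Ipsilateral array 2 was the lowest of the 6 for 13 genes, ipsilateral array 3 for 11 and contralateral array 3 for 10, against 15.7%, 18.1% and 14.9% of all tested genes. Ipsilateral array 1 and contralateral array 2 were each the highest for 12, against 13.3% and 16.4%. The mean of the 7 alpha genes was 10.61, 10.60 and 10.57 contralaterally and 10.58, 10.54 and 10.52 ipsilaterally. For the 7 beta genes it was 10.83, 10.85 and 10.77 and then 10.85, 10.76 and 10.75. Both means were lower on ipsilateral arrays 2 and 3, which were low in choroid plexus markers, than on ipsilateral array 1. The same held for the ATPases (10.84 on ipsilateral array 1, then 10.77 and 10.76). It also held for the activator or inhibitor group (7.84, then 7.74 and 7.78). The base scaffold and receptor genes went the other way, with 10.49 on ipsilateral array 1 and 10.60 and 10.53 on arrays 2 and 3. The assembly chaperones had 7.13, 7.13 and 7.17 and the lid 9.70, 9.71 and 9.65 on those arrays. With the level of those markers as a covariate 26 of 45 genes were lower, and without both low arrays 24 of 45, with a median of -0.02 in each case. Both settings were added after the values were seen, and the second leaves 1 ipsilateral array, which is assumed to vary like the contralateral ones. Under it the medians of some roles turned: 0.08 for the beta ring, 0.04 for the ATPases, -0.05 for the base scaffold and receptor genes and -0.04 for the assembly chaperones.

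**Figure D3:**
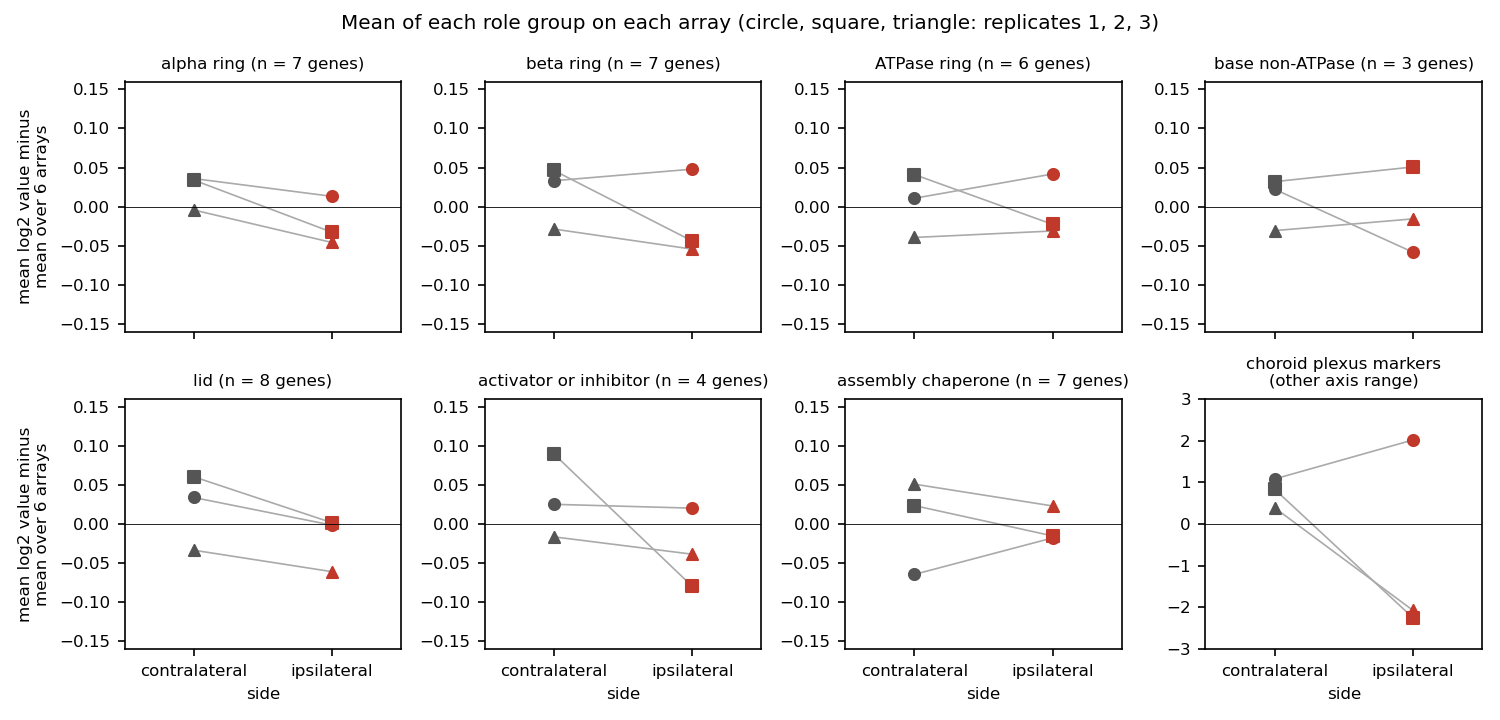
Mean log2 value of the genes of each role on each array, minus its mean over the 6 arrays, with grey lines joining the sides of a replicate; choroid plexus markers are in the last panel on a wider axis. The means of the alpha ring, the lid and the activator or inhibitor group are lower on the infused side in each of the 3 replicates, and the sides overlap in each panel.

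Of the 45 genes 18 had more than 1 tested probe set, with 44 probe sets in all. In 9 of the 18 genes all probe sets had the same sign. The 26 probe sets other than the brightest differed by -0.20 (Psmd4) to 0.35 (Psmf1), and 0 of them had an unadjusted limma p under 0.05. For Psma5, whose brightest probe set differed by -0.04, the others differed by 0.03 and, at a dim mean of 4.21, by 0.28.

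**Figure D4:**
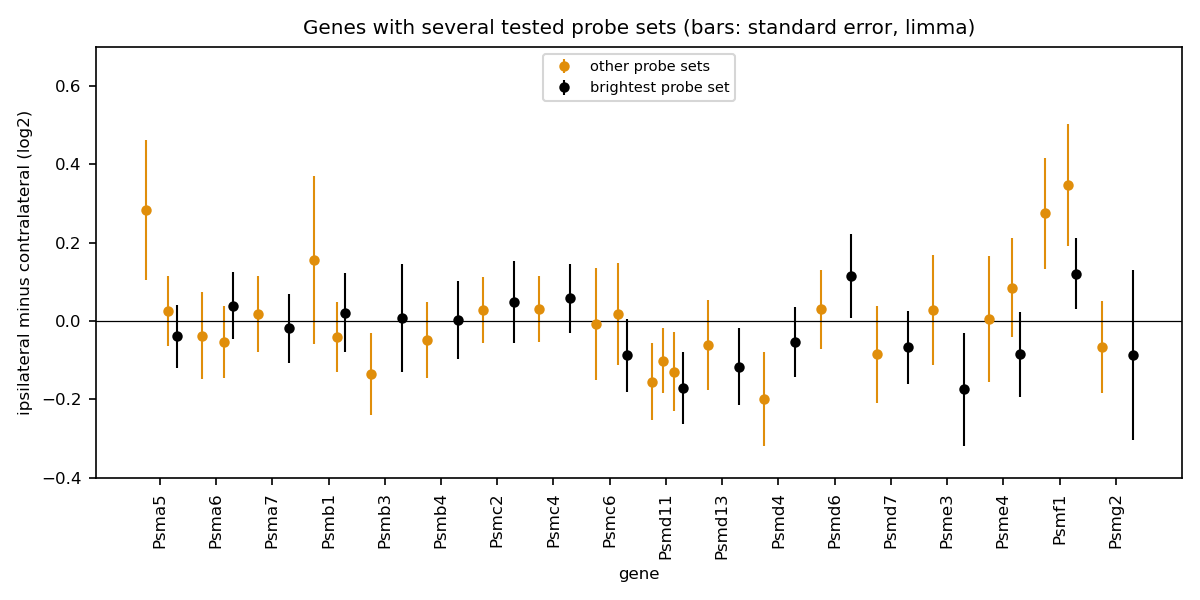
Difference between the sides (log2, bars for the standard error) for each tested probe set of the 18 genes that had several, with the brightest in black and the others in orange. All 4 probe sets of Psmd11 lie below 0 and all 3 of Psmf1 above it, while genes such as Psma6 and Psme4 have both signs.

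Genes that work with the proteasome under other names also gave 0 calls in limma after adjustment. Of 8 tested partner genes 6 were lower and 2 higher, with 0 at an unadjusted p under 0.05. Pomp, which the core needs to mature, differed by -0.08 (SE 0.09), and Uchl5, a deubiquitinase of the regulatory particle, by -0.08 (SE 0.08). Uchl5 had sides that did not overlap, at 9.81, 9.83 and 9.80 contralaterally and 9.80, 9.69 and 9.73 ipsilaterally. The 17 listed genes for ubiquitin and its activating and conjugating enzymes left 9 that were tested, all of them conjugating enzymes. Of these 9 genes 7 were lower and 2 higher, 0 of them at an unadjusted p under 0.05. Ube2n, which builds signalling ubiquitin chains, differed by -0.19 (SE 0.11, unadjusted p = 0.116) and Ube2g1 by -0.10 (SE 0.10). Of 9 tested genes for shuttle and segregase proteins 5 were lower and 4 higher, again with 0 at that level. Ufd1, a cofactor of the Vcp segregase, was higher in 3 of 3 replicates, at 8.95, 8.46 and 8.74 contralaterally and 9.08, 8.99 and 8.98 ipsilaterally. Its difference was 0.30 (SE 0.14, limma, unadjusted p = 0.0651), and with the replicate block its unadjusted p was 0.0463 (adjusted p = 0.991). Rad23b, a shuttle that brings tagged proteins to the proteasome, differed by -0.11 (SE 0.11).

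Of 11 tested transcription factors and cofactors that act on proteasome genes 7 were lower and 4 higher. The lists so far held 8, 9, 9 and 11 tested genes, and 2.43% of all tested genes lay at an unadjusted limma p under 0.05. Maff, a small Maf partner of Nfe2l1, was the 1 gene of these lists at that level. It measured 5.24, 4.55 and 4.61 contralaterally and 4.30, 4.36 and 3.52 ipsilaterally, a difference of -0.74 (SE 0.28, limma, unadjusted p = 0.0328, adjusted p = 1.00), and the values were dim. Maff is also an immediate early gene of many cells. Nfya, a subunit of NF-Y, differed by -0.58 (SE 0.36), with ipsilateral array 1 low at 4.13 and the other ipsilateral arrays at 5.06 and 5.58. Nfe2l1 itself differed by 0.10 (SE 0.17). The 6 members with the antioxidant response element differed by -0.13 (Psmb5) to 0.03 (Psmd9).

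Of 20 listed genes of MHC class I presentation and interferon response, which accompany the immunoproteasome, 10 were tested, 4 lower and 6 higher, with 0 at an unadjusted limma p under 0.05. Ifit3, an interferon-induced gene, differed by 0.24 (SE 0.13) and the interferon signalling gene Stat2 by 0.29 (SE 0.18), both with overlapping sides. Tap1, Irf7, Irf8, Ifit1 and Erap1 were below the minimum, as Psmb8 and Psmb9 were.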

How the data were processed

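Cochlear nucleus RNA of 6 pools, 3 per side, was hybridised to 6 Affymetrix arrays. The authors deposited log2 values per probe set, made with GCRMA per the submitters' processing notes, with version and settings not given in the sources used here. GCRMA corrects background by probe sequence, normalizes between arrays and pulls dim probes toward a floor, so a change common to most genes is removed and dim differences are uncertain. That the scale is log2 follows from the range of the values (1.40 to 15.9 without the 64 control probe sets).

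Of 22690 probe sets, the 64 controls and 7328 whose mean did not exceed 4 were left out, and 15298 were tested. Symbols came from the platform annotation held by the repository: 20380 probe sets had 1, 691 had several and 1555 had none, and only the first were named. A linear model was fitted to all 6 arrays with limma 3.58.1 (lmFit, eBayes; R 4.3.3), ipsilateral minus contralateral, with Benjamini-Hochberg adjustment over the 15298 and a threshold of 0.05. It was also run on simulated data, with planted changes larger than any difference or bound given here for the proteasome genes. That run does not speak to smaller differences. Shares of genes called among all tested genes use the brightest probe set of each of 8754 genes. Lists were described by counts and medians, with no set test.

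The series describes pools by replicate with 1 ear infused, so a shared number was taken to mean the same mice. After each side's mean was subtracted, same-numbered samples had correlations of 0.09, 0.04 and 0.57 over the tested probe sets. Samples of different numbers lay between -0.37 and 0.30, a range that includes 0.09 and 0.04. These correlations therefore do not settle the pairing. The replicate block was an alternative. Others were the filter, array weights, quantile normalization, median centring, a robust variance with trend, the choice of probe sets, leaving out each array or pair, and 2 settings on choroid plexus content added later.

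Per-array values are given for the 2 genes of smallest p in each role group, genes whose sides do not overlap, the catalytic subunits and Psmd14, and the 2 genes of smallest p of each other list are named. Psme1, Psmg2, Psmd6 and Nfe2l1 and the genes given by their difference alone were named beyond this rule. The genes and lists were chosen with earlier results of these data known. Psme3ip1 was set apart after the platform table was read.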

Additional observations from a re-analysis of the deposited data

How the results depend on the processing

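Over all alternatives 0 proteasome genes passed the adjusted threshold in limma. At an unadjusted p under 0.05 the count was 1 with no filter on dim probe sets (Psma8; against 2.24% of genes) and 1 with the probe sets of a gene averaged (Psmf1; against 2.63%), and 0 in every other setting, the replicate block and all fits lacking 1 array or 1 pair included. The number of genes lower on the infused side was 24 to 33 of 45 with arrays or pairs left out. It was 21 of 38 without probe sets whose names carry a letter before the final _at, such as _a_at, _s_at or _x_at. These were dropped by suffix alone, whether or not they are prone to cross-hybridization. The median was -0.05 to -0.0015 with arrays or pairs left out. With the replicate block the count of 26 and the median of -0.02 were fixed in advance. Each replicate number has 1 array per side, so the block can change only the spread and the p. The block changed no call. Of 413 comparisons of a named gene with an alternative 381 kept their sign, and 12 of 21 named genes kept it in every setting. Part of this was fixed in advance. The block, the robust variance with trend and the filters on the mean leave the difference of a probe set unchanged. With array weights Psmd2 turned to -0.01 and Psmd14 to 0.01. Psma5 turned to 0.09 with probe sets averaged and to 0.28 without probe sets of a lettered suffix, where another, dim probe set stands for it. With choroid plexus markers as a covariate Psmb6 turned to 0.05, Psmd2 to -0.01 and Psmd14 to 0.08, and without both low ipsilateral arrays these 3 gave 0.08, -0.04 and 0.15. With arrays or pairs left out the ranges were -0.13 to 0.07 for Psmb6, -0.16 to 0.05 for Psmb10, -0.05 to 0.08 for Psmd2, -0.10 to 0.06 for Psmd14, -0.30 to 0.0007 for Psme3, -0.05 to 0.21 for Psmd5, -0.07 to 0.25 for Psmc3ip and -0.06 to 0.09 for Psme3ip1. Of the genes that kept their sign there, the ranges were -0.14 to -0.05 for Psma1, -0.23 to -0.14 for Psma4, -0.05 to -0.02 for Psma5, -0.19 to -0.07 for Psmb5, -0.12 to -0.03 for Psmb7, -0.07 to -0.04 for both Psmc5 and Psmd10, -0.15 to -0.04 for Psmc6, -0.09 to -0.01 for Psmd4, -0.18 to -0.08 for Psmd13, 0.06 to 0.16 for Psmf1 and -0.22 to -0.02 for Psmg4. The cause of these changes was not tested. The number of arrays and the dim signal of Psma8, Psmb8, Psmb9 and Psmc3ip limit what can be said of them.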
